A study of Mus musculus with 2 samples.

Results

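The 9 genes described here take part in MHC class I antigen presentation or in the response to interferon. They are H2-K1, H2-D1, B2m, Tap1, Psmb8, Ifit1, Isg15, Ifitm3 and Cd274, chosen by name as 9 of the 21849 genes in the files, and all 9 were found. MHC class I molecules carry peptides from inside a cell to its surface, where T cells and natural killer cells read them. A class I molecule consists of a heavy chain and the light chain B2m, and its peptides are cut by the proteasome and pumped into the endoplasmic reticulum by the TAP transporter. Interferons bind surface receptors, act through JAK kinases and STAT factors, and turn on both the class I machinery and a large set of antiviral genes. In stromal cells that are moved between animals, class I level is one of the properties that bear on recognition by the host.

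The study compared costal-cartilage-derived stem cells (CDSCs) as isolated with CDSCs expanded in culture, asking whether expansion changed them. Primary CDSCs came from rib cartilage of neonatal C57BL/6J mice carrying CD45.1 or ZsGreen, digested with type II collagenase and sorted for cells without CD45, a pan-blood-cell protein, and with CD51, an integrin. Cultured CDSCs had been grown in medium with fetal bovine serum and were taken at passages 2 to 3. Each group was 1 droplet single-cell library, with no replicate and no treatment with interferon stated for either group, so every difference lacks a check against replicates and nothing was tested.

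The unit is the unique molecular identifier (UMI), a tag that marks a captured transcript. A barcode needed 500 genes or more, a total of 1000 UMIs or more, and no more than 10% mitochondrial UMIs, which left 11746 primary cells with 137148874 UMIs and 5338 cultured cells with 330129909 UMIs. Depth per cell differed, with a median of 10026.5 UMIs in primary and 56864.5 UMIs in cultured cells, and 50.6% of the cultured barcodes failed the filter. Levels are in CPM, UMIs of a gene scaled to a common library total after summing over kept cells. Intervals are exact, at 95%, and reflect the error of counting, not differences between animals or cultures. Chondrocyte markers made up 82555 CPM of the primary library and 590 CPM of the cultured one, while both libraries are labelled as bone marrow tissue. The 12 haematopoietic markers summed to 9.70 CPM in primary and 34.4 CPM in cultured CDSCs, all above 3 UMIs in each, while Ptprc, which encodes CD45, was at 0.620 and 0.345 CPM.

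The promoters of 5 members are shown, the 4 that hold the motif searched first and, as an example without an exact match, H2-K1. Each is the 250 bases before the transcription start, from RefSeq on GRCm38.p6, written 5′ to 3′ on the strand of the gene. Capitals mark the core of the interferon-stimulated response element, GAAANNGAA on either strand, where STAT and IRF complexes can bind. Ifit1 and Isg15 represent the antiviral genes, B2m and H2-K1 the class I molecule, and Cd274 the checkpoint ligand. The windows are chr19:34640639-34640888 (plus strand) for Ifit1, chr4:156200819-156201068 (minus strand) for Isg15, chr2:122147437-122147686 (plus strand) for B2m, chr19:29367188-29367437 (plus strand) for Cd274 and chr17:34000348-34000597 (minus strand) for H2-K1.
Ifit1: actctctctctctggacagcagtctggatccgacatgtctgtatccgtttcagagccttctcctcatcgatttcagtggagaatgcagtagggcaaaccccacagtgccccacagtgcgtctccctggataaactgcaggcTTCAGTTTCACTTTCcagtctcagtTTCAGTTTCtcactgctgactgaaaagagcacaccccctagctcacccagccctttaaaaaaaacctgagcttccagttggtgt
Isg15: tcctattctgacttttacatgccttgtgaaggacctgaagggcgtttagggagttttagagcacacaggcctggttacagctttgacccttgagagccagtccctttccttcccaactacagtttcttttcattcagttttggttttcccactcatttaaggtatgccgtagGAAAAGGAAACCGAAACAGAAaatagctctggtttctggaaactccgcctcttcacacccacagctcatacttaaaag
B2m: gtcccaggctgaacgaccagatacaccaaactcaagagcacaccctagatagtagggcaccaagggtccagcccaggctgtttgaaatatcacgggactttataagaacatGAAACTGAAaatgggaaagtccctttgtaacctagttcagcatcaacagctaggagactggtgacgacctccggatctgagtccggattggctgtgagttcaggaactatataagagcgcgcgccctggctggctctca
Cd274: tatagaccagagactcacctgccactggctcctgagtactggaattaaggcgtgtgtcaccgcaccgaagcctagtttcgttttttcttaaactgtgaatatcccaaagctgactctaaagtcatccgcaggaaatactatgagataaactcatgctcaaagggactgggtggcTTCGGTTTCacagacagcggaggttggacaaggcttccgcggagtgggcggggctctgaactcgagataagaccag
H2-K1: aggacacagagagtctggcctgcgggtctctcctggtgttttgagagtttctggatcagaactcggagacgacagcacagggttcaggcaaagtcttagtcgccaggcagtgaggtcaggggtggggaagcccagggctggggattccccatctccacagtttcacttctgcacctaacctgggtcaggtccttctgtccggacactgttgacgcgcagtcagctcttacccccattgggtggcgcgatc

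Ifit1 and Isg15 each held 3 matches to the core. In Ifit1 they began 109, 103 and 84 bases before the start, and in Isg15 they began 78, 72 and 66 bases before it. Neighbouring matches in the Isg15 run, and the first 2 in Ifit1, overlap in part. B2m held 1 match, 139 bases before the start, and Cd274 held 1, at 76 bases. No match lay in the nearest window of H2-K1, H2-D1, Tap1, Psmb8 or Ifitm3, which says only that these letters are not in those 250 bases. Of all 32851 promoter windows, 7.13% held the core. Among the 129 pathway genes with a window, 40 had it (31.0%), and of the 37 interferon-induced effectors with one, 23 did (62.2%), against 8.18% of all 27025 genes. The gamma-activated sequence TTCNNNGAA, which reads the same on both strands and is bound by STAT dimers, was found in 7.02% of windows. Of the members, only Psmb8 held it, 97 bases before the RefSeq start. That start lies 474 bases inside the coordinates given below for Psmb8, and the start used for H2-D1 lies 364 bases inside its own. The windows of these genes therefore lie within the genes as listed below. The 2 motifs did not overlap in any member.

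Of the 9 members, 8 were at least 2-fold higher in the cultured library. The other, Cd274, had a log2 ratio of 0.42 with an interval that spans 0. A total of 12839 genes reached 1 CPM in a library, and of these 28.9% were 2-fold or more higher in cultured CDSCs and 15.1% were 2-fold or more lower. No member was 2-fold lower. The median log2 ratio of cultured over primary CPM was 2.72 over the 9 members and 0.36 over all genes tested. Psmb8, Ifit1 and Isg15 reached 1 CPM only in the cultured library, where they are high, and Cd274 reached it in neither, so the members' count is given as a description.

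The heavy chains H2-K1 and H2-D1 form the classical class I molecules that present peptides to cytotoxic T cells. H2-K1 (chr17:33996017-34000347, minus strand, GRCm38) was at 13.9 CPM in primary and 54.8 CPM in cultured CDSCs, a log2 ratio of 1.98 (interval 1.91 to 2.05). H2-D1 (chr17:35262730-35267499, plus strand) was at 28.3 CPM in primary and 78.8 CPM in cultured CDSCs, a log2 ratio of 1.48 (1.43 to 1.52). Genes of the H2 family are near copies of each other, and reads that match several of them could not be assigned with certainty, so the split between family members is uncertain. B2m (chr2:122147686-122153083, plus strand), the light chain shared by class I molecules, was at 99.5 CPM and 263 CPM, with 13652 and 86960 UMIs and a log2 ratio of 1.40 (1.38 to 1.43). The 3 subunit genes of the class I molecule were thus higher by 2.65- to 3.94-fold.

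Tap1 (chr17:34187553-34197225, plus strand) encodes a subunit of the transporter that moves peptides into the endoplasmic reticulum. Its level was 1.28 CPM in primary and 8.42 CPM in cultured CDSCs, 6.60-fold higher, from 175 and 2780 UMIs. Psmb8 (chr17:34197721-34201454, plus strand), the neighbour of Tap1 in the MHC, encodes a catalytic subunit that replaces Psmb5 in the immunoproteasome. Only 28 UMIs of Psmb8 were counted in the primary library against 2637 in the cultured one, or 0.204 and 7.99 CPM. The log2 ratio was 5.29 (4.76 to 5.88), the highest of the 9 members. Of those 28 primary UMIs, 32.1% came from the 290 cells that were not chondrocyte-like.

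Ifit1 (chr19:34640871-34650009, plus strand), an antiviral protein that binds foreign RNA ends, was counted 16 times in the primary library and 741 times in the cultured one. These are 0.117 and 2.24 CPM, a log2 ratio of 4.27 (3.56 to 5.08). Isg15 (chr4:156199424-156200818, minus strand), a ubiquitin-like modifier, was at 0.489 CPM (67 UMIs) in primary and 8.55 CPM (2823 UMIs) in cultured CDSCs, a log2 ratio of 4.13 (3.78 to 4.50). Ifitm3 (chr7:141009586-141010770, minus strand), a membrane protein that blocks virus entry through endosomes, was at 17.6 CPM in primary and 575 CPM in cultured CDSCs. Its log2 ratio of 5.03 (4.97 to 5.09) rested on 2415 and 189803 UMIs. Ifit and Ifitm genes also have close relatives in the genome, and reads shared between copies could not be told apart here.

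Cd274 (chr19:29367455-29388095, plus strand) encodes PD-L1, the ligand that restrains T cells through PD-1. It was counted 42 times in the primary and 135 times in the cultured library, or 0.306 and 0.409 CPM. The interval of its log2 ratio, 0.42 (−0.09 to 0.95), spans 0, so a difference in either direction was not detectable from the summed counts at this depth. When each cell weighed the same, its log2 ratio was 1.05.

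**Figure D1:**
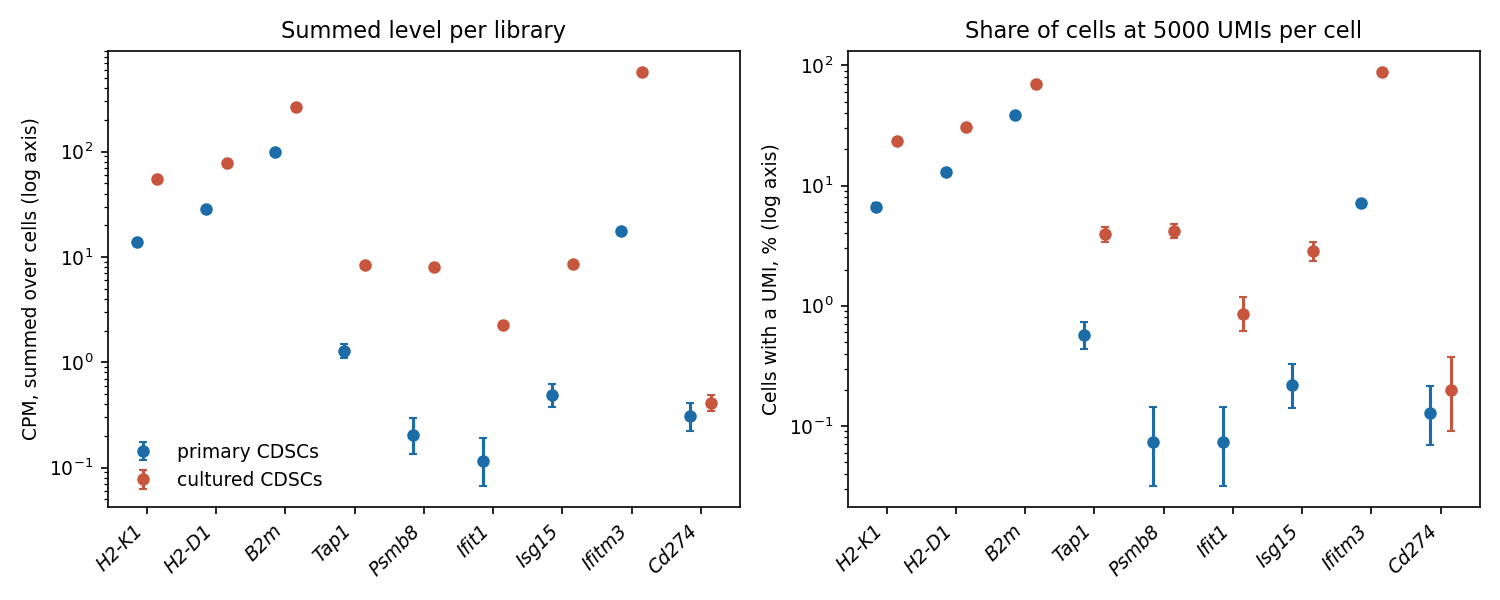
Level of the 9 members in the primary (blue) and cultured (red) library, left as CPM summed over kept cells and right as the percent of cells with a UMI after thinning each cell to 5000 UMIs, both on log axes. Points are the values of 1 library each and bars exact 95% intervals for counting error; 8 members lie apart in both panels, and the bars of Cd274 overlap.

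The share of cells with a UMI was compared after each cell had been thinned to 5000 UMIs, since deeper cells show more genes. This kept 10959 primary and 4543 cultured cells and left out 787 and 795. Ifitm3 was found in 7.09% of primary cells and 88.0% of cultured cells. B2m was found in 38.5% and 70.1%, H2-D1 in 13.0% and 31.0%, and H2-K1 in 6.63% and 23.5%. Class I heavy chain transcripts were thus seen in a minority of cells at this depth in both libraries.

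The rarer members kept the same order at equal depth. Tap1 was found in 0.566% of primary and 3.92% of cultured cells, and Psmb8 in 0.0730% and 4.20%. Isg15 was found in 0.219% and 2.84%, and Ifit1 in 0.0730% and 0.858%. Cd274 was found in 0.128% (interval 0.0699% to 0.214%) and 0.198% (0.0906% to 0.376%), and these intervals overlap. Without thinning, the shares ran from 0.136% for Ifit1 to 59.7% for B2m in primary cells and from 2.19% for Cd274 to 91.4% for Ifitm3 in cultured cells. No class of cells in these libraries should lack class I genes, so the share that free RNA gives could not be measured for them. As a gauge, the cartilage collagen gene Col2a1 was at 26171 CPM in 26 primary cells with mast cell and endothelial markers against 53327 CPM in the others. In the cultured library the mesenchymal gene Prrx1 was at 148 CPM in 9 haematopoietic-like cells against 482 CPM in the others. The part of free RNA in the members' shares was not tested.

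The members were set beside 157 other genes of the same pathways, grouped by role. Of all 166 pathway genes, 111 reached 1 CPM in either library, and 69 of these were past 2-fold higher in cultured CDSCs and 18 past 2-fold lower, beside 28.9% and 15.1% of all genes tested. Without the members, 61 of 103 were higher and 18 lower, with a median log2 ratio of 1.29. Only 78 of the 111 reached 1 CPM in the primary library, and of those 37 were higher and 18 lower, beside 23.7% and 16.3% of all 11850 genes that reached it there. The counts of each list below are to be read beside these same shares.

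Among 9 heavy chains and relatives, 7 were at least 2-fold higher, with a median log2 ratio of 1.95. Only 6 of the 9 reached 1 CPM in the primary library, 4 of them higher and 2 lower. H2-T22 stood at 8.87 CPM in primary and 34.4 CPM in cultured CDSCs, close to the ratio of H2-K1. The 2 lower ones were Fcgrt, the receptor that recycles IgG, at 188 and 80.6 CPM, and H2-Q4, at 7.30 and 2.90 CPM. Of the 9 light chain and loading genes, 8 were at least 2-fold higher, Calr, Canx and Pdia3 with log2 ratios of 1.24, 1.38 and 1.12. Tapbp, the bridge between TAP and the class I molecule, had 0.83.

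All 5 immunoproteasome genes were at least 2-fold higher, with a median log2 ratio of 2.58, and 3 of them reached 1 CPM in the primary library. Psmb10, another replacement subunit, was at 4.74 and 28.3 CPM, and the activator subunits Psme1 and Psme2 had log2 ratios of 2.07 and 1.29. Of the 4 constitutive counterparts, only Psmb5 was 2-fold higher, at 94.5 CPM in primary and 278 CPM in cultured CDSCs, and the list's median was 0.53. Psmb6 and Psmb7 had log2 ratios of 0.47 and 0.59, and Psme3 had −0.26. Of 4 class II genes, none was 2-fold higher. Cd74, at 2.30 and 0.345 CPM, and H2-Ab1, at 1.36 and 0.579 CPM, were 2-fold lower, while H2-DMa and H2-DMb1 had log2 ratios of −0.24 and 0.78.

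Interferons themselves were almost absent from the counts. The 11 ligand genes together gave 2 UMIs in primary and 10 in cultured CDSCs, the latter from Ifnk (7) and Ifne (3), and Ifnb1 had 0 in each. The floor of 3 UMIs, used as the limit for a count of 0, corresponds to 0.0219 CPM in primary and 0.00909 CPM in cultured CDSCs. Of 7 receptors and kinases, Ifnar1, Ifngr2 and Tyk2 were at least 2-fold higher, with log2 ratios of 1.63, 1.17 and 1.01. Jak2 was lower, at 90.4 CPM in primary and 33.2 CPM in cultured CDSCs. Among all genes tested, 28.9% were at least 2-fold higher and 15.1% lower.

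The 12 transcription factors were split, with 3 at least 2-fold higher and 3 lower, beside 28.9% and 15.1% of all genes tested. For the higher genes this is near the share of all genes. Only 10 of the 12 reached 1 CPM in the primary library, 1 of them higher and 3 lower. Of all genes that reached it there, 23.7% were higher and 16.3% lower. Irf7 and Irf5, interferon regulatory factors, were among the 3 higher ones of the 12, with log2 ratios of 2.12 and 1.37. Nlrc5, the transactivator of class I genes, was lower in cultured CDSCs, at 12.3 CPM in primary and 2.07 CPM in cultured cells, a log2 ratio of −2.57. Irf1, another activator of class I genes, had −2.38 and Stat3 −1.50. H2-K1, H2-D1 and B2m were higher in the same pair of libraries, and H2-Q4 and Fcgrt were lower.

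The genes for ISG15 conjugation and feedback were split, with 3 of 8 at least 2-fold higher and 4 lower. The shares of all genes tested were 28.9% and 15.1%. Only 6 of the 8 reached 1 CPM in the primary library, 1 of them higher and 4 lower. The lower ones were Socs3 at 261 and 27.6 CPM, Socs1 at 37.8 and 11.6 CPM, Ptpn2 at 135 and 45.5 CPM and Uba7, the enzyme that activates ISG15, at 6.47 and 2.87 CPM. The 3 higher ones were Ube2l6, Herc6 and Usp18, with log2 ratios of 2.53, 1.52 and 1.28. Of 11 genes listed as nucleic acid sensors, 7 were at least 2-fold higher. The list includes Tlr4, a receptor for lipopolysaccharide, with a log2 ratio of 2.12, and the signalling genes Mavs and Tbk1. Only 7 of the 11 reached 1 CPM in the primary library, 4 of them higher and 1 lower. Sting1, the adaptor of cytosolic DNA sensing, was at 0.685 and 11.0 CPM, and the RNA sensor Rigi at 3.90 and 23.8 CPM, while Zbp1 was the 1 lower gene, at 1.12 and 0.245 CPM.

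Of 31 interferon-induced effectors, Ifit1 and Isg15 among them, 27 were at least 2-fold higher and 1 lower, with a median log2 ratio of 2.45. Rtp4 was at 0.897 and 37.5 CPM, Samhd1 at 12.5 and 63.4 CPM, and Bst2, which tethers virus particles, at 5.45 and 30.6 CPM. The lower one was the chemokine Cxcl10, at 6.79 CPM in primary and 0.642 CPM in cultured CDSCs. Only 13 of the 31 reached 1 CPM in the primary library, 9 of them higher. Within the IFITM family, Ifitm3 was the 1 gene of 4 that was at least 2-fold higher. Ifitm2 had a log2 ratio of 0.28, at 462 and 562 CPM, and Ifitm10 and Ifitm1 were lower, with −1.90 and −1.30.

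Among 7 checkpoint and co-stimulatory ligands past 1 CPM, which Cd274 was not, 4 were at least 2-fold higher. Only 5 of the 7 reached 1 CPM in the primary library, 2 of them higher and 2 lower. Nectin2 and Pvr, ligands of TIGIT and CD226, were at 0.875 and 38.5 CPM and at 4.86 and 27.3 CPM. The co-stimulatory ligand Cd80 was at 0.569 and 14.1 CPM, and Lgals9 at 1.85 and 20.7 CPM. Nt5e, which makes adenosine, and Vsir were lower, with log2 ratios of −1.96 and −1.34.

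**Figure D2:**
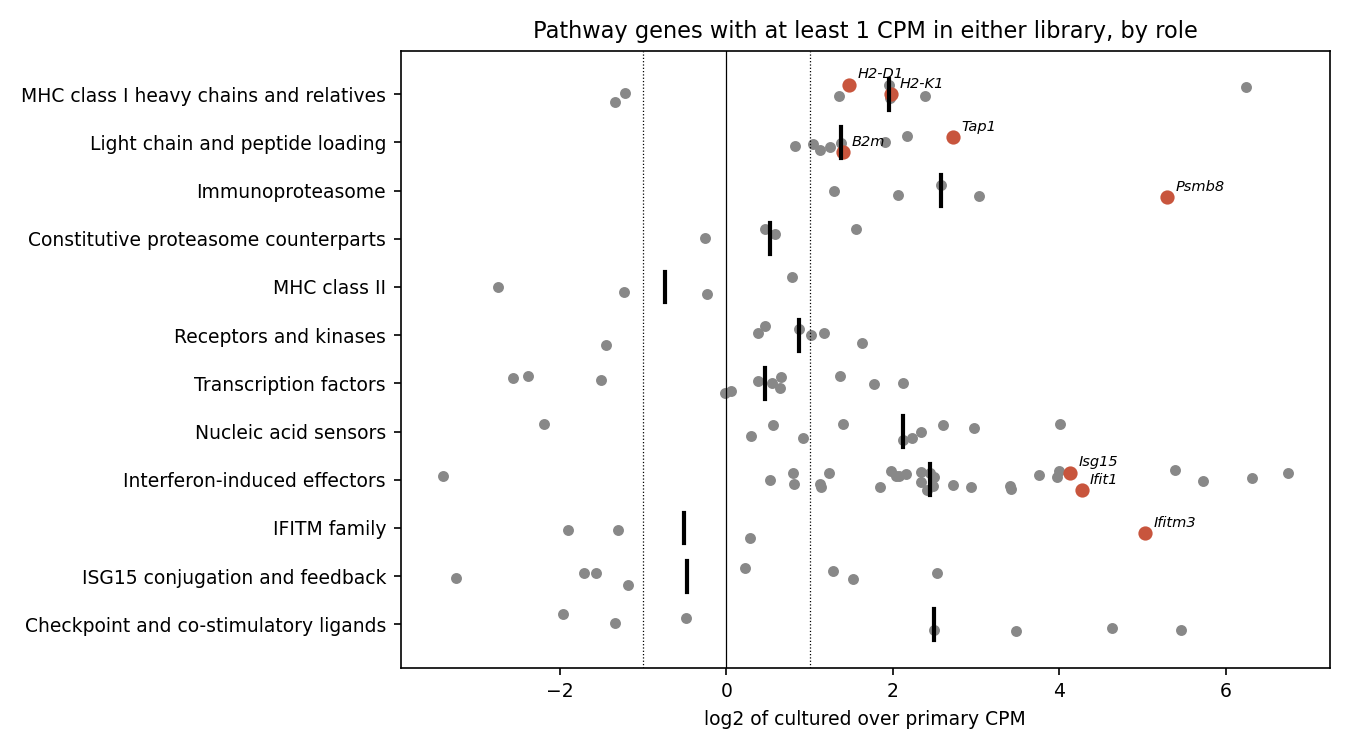
Log2 of cultured over primary CPM for the pathway genes that reached 1 CPM in a library, 1 point a gene, by role; red points are members (Cd274 lies under 1 CPM and is not drawn), black bars list medians, dotted lines 2-fold, and vertical scatter is only for legibility. The immunoproteasome genes and 27 of 31 effectors lie right of the 2-fold line, and MHC class II, ISG15 conjugation and feedback genes lie on both sides of 0.

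Cells were also grouped into clusters within each library, on variable genes from which every pathway gene had been removed, so the members' levels were not used. In the primary library, 11456 of 11746 cells (97.5%) were chondrocyte-like, and 290 were not. The 290 cells had higher levels of most members. Ifitm3 was at 14.2 CPM in chondrocyte-like cells and 189 CPM in the 290, H2-D1 at 27.2 and 84.7 CPM, and B2m at 96.6 and 249 CPM. They held 20.8% of the primary UMIs of Ifitm3 and 22.4% of those of Isg15, and 3.36% of those of H2-K1. Against chondrocyte-like primary cells alone, the log2 ratio was 5.34 for Ifitm3, 4.47 for Isg15 and 5.82 for Psmb8.

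The cells with blood or vessel markers were few. A primary cluster of 26 cells, led by the mast cell genes Tpsb2 and Cma1 and by endothelial genes, had H2-D1 at 324 CPM, H2-K1 at 102 CPM, Ifitm3 at 880 CPM and Cd274 at 10.2 CPM, the last from 3 UMIs. The 9 haematopoietic-like cultured cells had H2-D1 at 358 CPM, H2-K1 at 163 CPM, Psmb8 at 66.6 CPM and Cd274 at 24.7 CPM, from 10 of the library's 135 UMIs. No Ifit1 UMI was counted in those 9 cells. Without both clusters the log2 ratio was 2.00 for H2-K1, 1.50 for H2-D1, 5.62 for Psmb8, 4.24 for Isg15 and 0.41 for Cd274.

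Over the clusters of at least 50 cells, members differed in how evenly they were spread. H2-K1 ran from 9.96 to 18.1 CPM over 10 primary clusters and from 26.3 to 81.7 CPM over 9 cultured ones. The 10 primary clusters are all chondrocyte-like, since the 290 other primary cells fell into sub-clusters of under 50 cells. Those 290 cells had Ifitm3 at 189 CPM, above only 1 cultured cluster, that of 53 cells at 105 CPM. The next lowest cultured cluster was at 457 CPM. The sub-cluster of 26 among the 290 cells had H2-K1 at 102 CPM, above the cultured range. That sub-cluster also held 258 of the 502 Ifitm3 UMIs of the 290 cells. The 163 fibroblast-like cells among them had Ifitm3 at 85.8 CPM, below the cultured range, and the 9 smooth muscle and pericyte-like cells at 581 CPM. Ifitm3 ran from 9.31 to 19.8 CPM and from 105 to 874 CPM. Tap1 ran from 0.895 to 2.43 CPM and from 4.62 to 9.41 CPM. The ranges of B2m (56.8 to 213 CPM and 91.3 to 362 CPM) and of H2-D1 (12.0 to 50.2 CPM and 38.8 to 109 CPM) overlapped. The lowest B2m, H2-D1, H2-K1 and Ifitm3 levels among cultured clusters were those of 1 cluster of 53 cells with 7.21% median mitochondrial UMIs. The highest H2-K1 and H2-D1 levels were in a cultured cluster of 263 cells led by Nr5a2 and Barx1.

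Isg15 ran from 0.625 CPM, a single UMI, to 32.3 CPM over the cultured clusters, and Psmb8 from 0 to 10.6 CPM. The top value was that of a cluster of 864 cells with a median of 1277 UMIs, and 85.1% of its 175 Isg15 UMIs came from 5 cells. Without those 5 cells, a setting added once the values were known, the cluster was at 5.17 CPM. Ifit1 in the same cluster went from 7.02 to 0.584 CPM without its 5 cells with most Ifit1.

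**Figure D3:**
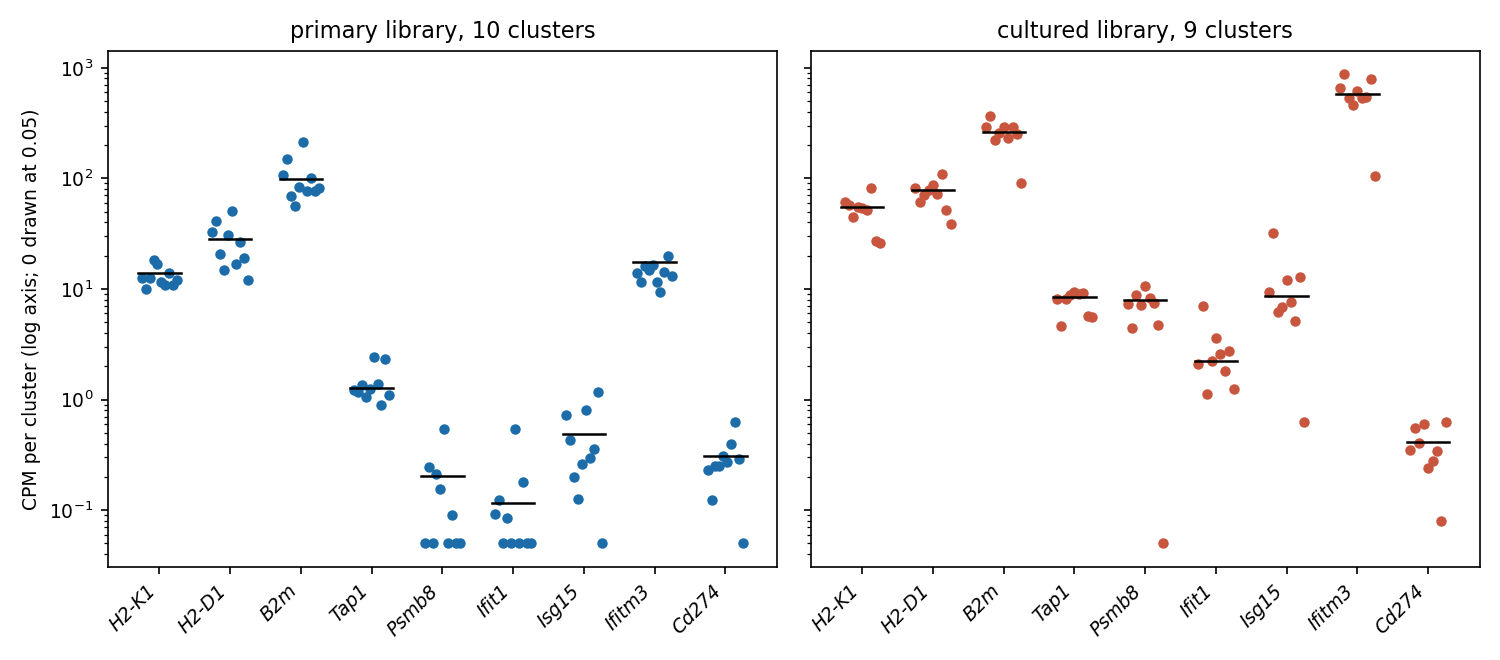
CPM of each member in every cluster of at least 50 cells (points) of the primary (left, 10 clusters) and cultured (right, 9 clusters) library, on a log axis with 0 drawn at 0.05; black bars mark the level over all kept cells. Primary H2-K1 stays between 9.96 and 18.1 CPM, and cultured Isg15 spans 0.625 to 32.3 CPM.

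The members differed in their spread from cell to cell when single cultured cells were compared at 20000 UMIs, which kept 4156 cells. The variance of UMIs per cell over their mean, which is 1 for counting error alone, was 1.67 for H2-K1, 1.90 for H2-D1, 1.97 for B2m, 1.03 for Tap1 and 1.29 for Psmb8. It was 8.15 for Isg15, 5.14 for Ifitm3 and 4.83 for Ifit1. For the same relative spread this ratio grows with the mean, which was 11.8 UMIs per cell for Ifitm3 and 0.0517 for Ifit1. The value of Ifitm3 is therefore not compared with those of rarer members. The 42 cells with the most Isg15, 1% of cells, held 53.1% of its UMIs. For Tap1 and Psmb8, which had a similar mean of 0.168 and 0.179 UMIs per cell against 0.173 for Isg15, the 42 highest cells held 12.4% and 15.5%. Such shares depend on abundance, so those of members with other means are not compared.

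Ifit1 and Isg15 were often found in the same cells. Isg15 had a UMI in 50.5% of 101 cells with Ifit1 (interval 40.4% to 60.6%) and in 6.36% of 4055 cells without it (5.63% to 7.16%). Tap1 was found in 29.7% and 14.8% of these cells, and H2-K1 in 69.3% and 59.8%. Of the class I pair, H2-D1 was found in 77.1% of the cells with H2-K1 (75.4% to 78.7%) and in 67.3% of those without it (65.0% to 69.5%). B2m, found in 4097 of the 4156 cells, was too common at this depth for such a comparison.

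To describe these cells, UMIs of 9 other interferon-induced genes (Ifit2, Ifit3, Ifit3b, Ifi44, Usp18, Oasl2, Rsad2, Cmpk2 and Irf7) were summed per cell, with genes and cut chosen after the data had been seen. At least 5 such UMIs were found in 25 of 4156 cultured cells (0.602%, interval 0.390% to 0.887%), 3403 cells had none, and 14 cells had 4 and 4 cells had 5. These 25 cells were spread over 6 of 10 clusters and their median depth was 64215 UMIs before thinning, against 70745 UMIs in the cells with none. They held 47.9% of all Ifit1 UMIs and 35.8% of all Isg15 UMIs. Of the 1165 primary cells thinned to the same depth, 1 passed the cut (0.0858%, interval 0.00217% to 0.477%), and the intervals of the 2 libraries overlap. That cell lay in the 26-cell cluster with mast cell and endothelial markers. At 5000 UMIs per cell, 1 of 10959 primary cells and 7 of 4543 cultured cells passed it. The primary cell at that depth lay in a fibroblast-like sub-cluster of 43 cells. No chondrocyte-like primary cell passed the cut at either depth.

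The members differed in how far they were raised in those 25 cells. The groups were picked by counts of other interferon-induced genes, so the contrasts are a description. Ifit1 was at 4.12 UMIs per cell, against 0.0112 in the cells with none of the 9 genes, and Isg15 at 10.3 against 0.0696. In the 728 cells with some of these UMIs but under 5, Ifit1 was at 0.102 and Isg15 at 0.309. Ifit2 was found in 48.4% of these 728 cells and Irf7 in 31.6%, so this group rests largely on those genes. Alone of the 9 genes, Ifit2 was not higher in the 25 cells, at 0.400 against 0.549 in the 728. Psmb8 was at 1.16 in the 25 cells against 0.170 in the cells with none. Ifitm3 was at 36.1 against 11.5, and Tap1 at 0.400 (interval 0.192 to 0.736) against 0.159. The class I subunits were nearer to each other, with H2-K1 at 2.08 against 1.11, H2-D1 at 2.72 against 1.64 and B2m at 6.96 against 5.27. Cd274 was not counted in any of the 25 cells, and neither was Ptprc. In the cells with none of the 9 genes they were at 0.00588 and 0.0109 UMIs per cell. At such levels 25 cells are too few to show a difference. The actin gene Actb, which takes no part in the response, was at 86.1 and 88.5 UMIs per cell.

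In the cells with none of the 9 genes, Ifitm3 still averaged 11.5 UMIs per cell at 20000 UMIs and was found in 99.2% of them. The 1165 primary cells of that depth, the deepest of their library, averaged 0.339 UMIs of Ifitm3 and 0.300 of H2-K1. Of these cells, 472 were among those with the highest doublet scores, against 409 of the 4156 cultured cells. The cultured cells with none of the 9 genes averaged 1.11 UMIs of H2-K1.

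**Figure D4:**
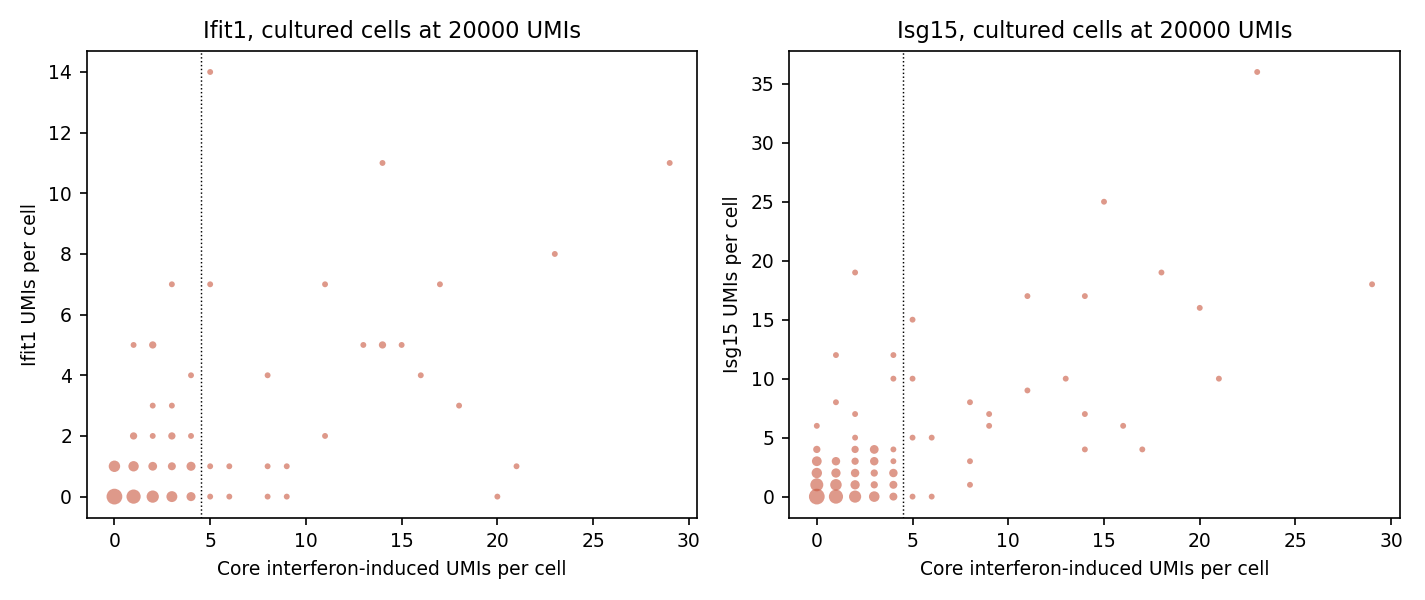
UMIs per cell of 9 other interferon-induced genes (horizontal axis) against UMIs of Ifit1 (left) and Isg15 (right) in 4156 cultured cells thinned to 20000 UMIs; larger points stand for more cells, and the dotted line marks the cut at 5 UMIs. Most cells sit near the origin, and the 25 cells right of the line include those with the most Ifit1 and Isg15.

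The genes most like H2-K1 over clusters, by Pearson correlation of log2(CPM + 1), were Camta1 (0.88), Slc66a2 and Tram1 over 10 primary clusters and Cd151 (0.92), Rnaset2b and Aldoc over 9 cultured ones. For Isg15 they were Ing1 (0.95), Wdr48 and Dnase1l1 in primary and Rps27rt (0.98), Tmem80 and Snrpb2 in cultured clusters. None of these 12 genes recurred between the libraries or belongs to the pathway lists. Clusters of 1 library share its depth and preparation. Primary clusters held 0 to 16 UMIs of Isg15 each, and the highest cultured level of Isg15 is that of the 864-cell cluster above.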

How the data were processed

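The authors had deposited 1 UMI count matrix per library, made with Cell Ranger 7.0.0 from 10x 3′ reads, with raw counts per gene and barcode. The study's methods give GRCm38 as the genome and the submitters' notes also list GRCm39, so coordinates were taken by gene identifier from GENCODE M21 (GRCm38), which held 21707 of 21849 identifiers. Groups came from the labels. The members and gene lists were chosen with earlier results of these data known.

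Counts were summed over kept cells and scaled to CPM. A log2 ratio compares cultured with primary CPM, with counts under 3 raised to 3. Intervals were exact (Poisson, Clopper-Pearson, conditional). Clusters were made with scanpy 1.11.5 and leidenalg 0.10.2 (resolution 0.5, 20 neighbours, 10 components, 2000 variable genes). Scrublet called 0 and 1 doublets and had not worked, so leaving out the highest scores (1118 and 461 cells) served as an alternative. The libraries shared 32 barcodes, 15 among kept cells. The ratio and its interval were tested on simulated counts with counting error only, as the interval assumes. That checks the computation and leaves out the spread between cells, animals and cultures. Named pathway genes were the 4 per list that differed most on the log2 scale and reached 10 CPM in a library. Others that are named, the lower genes of each list in particular, were chosen after their values were seen. The values of 1 pathway gene are not reported here.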

Additional observations from a re-analysis of the deposited data

How the results depend on the processing

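At least 8 members were 2-fold or more higher in the cultured library under each alternative for the cell filter, doublets, scaling and cell classes. None was 2-fold lower. The log2 ratio of Cd274 stayed above 0, but its interval spans 0 in the main setting. With at most 5% mitochondrial UMIs, 8 of the 9 members lay above the median of all genes. At a 4-fold limit in place of 2-fold, 5 members were higher. Of 111 pathway genes, 43 were then higher and 6 lower, beside 12.6% and 7.48% of all genes tested. Only 4 members reached 10 CPM in either library (H2-K1, H2-D1, B2m and Ifitm3), and all 4 were past 2-fold higher. Of 59 pathway genes that reached 10 CPM, 30 were past 2-fold higher and 10 lower, beside 27.2% and 12.5% of 9115 genes. The smaller counts under both settings follow from the stricter limits. TMM scaling (edgeR 4.0.16) moved the median log2 ratio of all genes from 0.36 to 0.16. Measured from the median of all genes, 8 members stayed at least 2-fold higher under TMM and 7 when each cell weighed the same. The log2 ratio of Cd274 ran from 0.22 (TMM) to 1.05 (each cell weighing the same), that of Psmb8 from 4.98 to 5.82 and that of B2m from 1.21 to 1.46. The cause of the change in Cd274 was not tested. With at least 4 or 10 UMIs of the 9 other interferon-induced genes in place of 5, both chosen after seeing the data, 39 and 14 cultured cells passed and held 53.5% and 34.4% of Ifit1 UMIs. No paired analysis was possible because each group was 1 library. Depth limits Cd274, Ifit1 and Psmb8 in the primary library, with 42, 16 and 28 UMIs.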
